A study of Homo sapiens with 12 samples.

Results

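TRGC1 and TRGC2, the constant genes of the T cell receptor gamma locus, were followed in prostate cancer cells with and without siRNA against FOXA1. They were chosen by name as 2 rows of the 60106 genes in the count tables, and 19 further rows of the locus, 14 variable (TRGV) and 5 joining (TRGJ), were used as context. The pair was proposed because of its lower level after FOXA1 siRNA in VCaP, so its VCaP values, and those of the other rows of the locus, are given as a description with no test. The tables came from 12 libraries of 2 established cell lines, PC3 and VCaP, each given either siRNA against FOXA1 (siFOXA1) or a control siRNA with no target (NSI), 3 replicates a group. RNA was taken after 72 hours. PC3 received 20 nM siRNA in RPMI-1640 medium and its libraries were made from polyA RNA by TruSeq stranded mRNA. For VCaP the dose was 40 nM in DMEM, and its libraries were made with the TruSeq total RNA kit, so the line cannot be told apart from dose, medium, kit or the use of strand in counting. No label says whether replicates were separate cultures, so p-values measure the spread between these libraries, which may be technical.

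The gamma chain of the T cell receptor is made from a variable, a joining and a constant segment, and the DNA between the segments is cut out only in developing lymphocytes. Prostate epithelial cells are known to transcribe the unrearranged locus from a start at the joining segment TRGJP into TRGC1. That transcript is named TARP, for T cell receptor gamma alternate reading frame protein, because its protein is read from the constant exon in another frame than the receptor chain. TARP is known as an androgen-regulated prostate transcript, and FOXA1 is a forkhead transcription factor that opens chromatin in prostate cells.

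All 21 rows lie on the minus strand of chromosome 7 between 38279181 and 38407770 (GRCh37), a span of 128.59 kb. TRGC1 (ENSG00000211689.7_3) runs from 38297480 to 38305279 and has 3 exons. TRGC2 (ENSG00000227191.8_3) runs from 38279181 to 38289173 and has 4. The tables were counted on GENCODE v28lift37 and have no TARP row. In the v44 lift of GENCODE to GRCh37, TARP runs from 38299244 to 38313237, with a first exon of 50 bases inside TRGJP and the remaining exons inside those of TRGC1. Spliced TARP RNA therefore counts toward TRGJP and TRGC1. TRGJ1 lies in an intron of TARP, so unspliced TARP RNA could count toward TRGJ1. Fragments of TARP that also fit TRGC2 could count in part toward TRGC2. How much did so was not tested.

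The TARP coding frame is shown because it lies in an exon that TRGC1 and TRGC2 share almost letter for letter. It fills bases 13 to 186 of the first constant exon of TRGC1 (chr7:38305094-38305267, minus strand), and the same stretch of TRGC2 lies at chr7:38288988-38289161. Capitals mark the 4 bases that differ, which are A41G, G56A, T104A and G108A, with the TRGC1 base first and positions counted from 1 at the first base of the frame.
TARP frame in TRGC1: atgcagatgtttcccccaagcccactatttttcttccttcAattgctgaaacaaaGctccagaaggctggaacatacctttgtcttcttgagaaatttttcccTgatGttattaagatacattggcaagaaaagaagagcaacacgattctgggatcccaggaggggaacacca
Same stretch of TRGC2: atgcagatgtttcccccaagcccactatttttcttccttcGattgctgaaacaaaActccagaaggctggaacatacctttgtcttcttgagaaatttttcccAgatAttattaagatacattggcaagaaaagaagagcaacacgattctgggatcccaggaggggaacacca

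Both stretches begin with ATG and hold 58 codons with no stop codon in frame. Over the whole exon of 330 bases, the TARP register had 4 stop codons and the register from base 2 had 12. Only the register from base 3 had 0 in 109 codons. The 2 exons were 98.2% identical, the coding part of the last exon 99.3% and the first 447 bases of the 3′ untranslated part 99.3%. TRGC2 carries 2 copies of the 48-base second exon, 87.5% identical to each other. The second copy matched that of TRGC1 at 97.9% and the first at 89.6%. Of all 50-base windows of the spliced TRGC2 row, 44.7% occur unchanged in TRGC1, against 16.1% of those of TRGC1 in TRGC2. The longer 3′ untranslated part of TRGC1, 2212 bases against 447, makes up most of its length. Fragments that fit both genes were divided between them in the deposited counts, so the TRGC2 value is uncertain, and read length was not given in the sources used here.

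The 250 bases before the TRGV9 row (chr7:38358463-38358712, minus strand of GRCh37) are shown because TRGV9 had the highest level per kb in the locus. Capitals mark a match to a forkhead motif.
Before the TRGV9 row: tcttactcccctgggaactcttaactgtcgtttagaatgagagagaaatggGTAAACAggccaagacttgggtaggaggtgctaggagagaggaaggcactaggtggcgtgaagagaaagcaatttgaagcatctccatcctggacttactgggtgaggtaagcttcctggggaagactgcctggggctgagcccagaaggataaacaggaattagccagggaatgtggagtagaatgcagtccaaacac

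The search covered both strands from 250 bases before to 50 after the start of the row. It used 4 forkhead strings: TGTTTAC is the usual core, TATTTAC differs from it at the second letter, TGTTGAC differs from it at the fifth letter, and TATTGAC carries both changes. The window held 1 TGTTTAC, on the opposite strand, 199 bases before the start, and none of the other strings. All 4 strings end in C, so forms ending in another letter were not searched. The stretch ataaaca in the sequence above, TGTTTAT on the opposite strand, is therefore not marked. Among 35116 RefSeq promoters of the same length (GRCh38), 3.42% held TGTTTAC and 9.28% held any of the 4. The window did not hold the palindromic consensus of the androgen response element, present in 0.390% of promoters, or the shorter AGAACA, present in 14.8%. A match is a run of letters and not a measured binding site.

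FOXA1 itself, the target of the siRNA, was lower in both lines. In VCaP it was at 457, 467 and 543 CPM (counts scaled to a common library size with TMM factors) in NSI and at 85.1, 73.5 and 83.0 in siFOXA1, which was 16.5% of the NSI mean. In PC3 it was at 303, 244 and 266 CPM in NSI and 163, 182 and 162 in siFOXA1, or 62.3%. No library overlapped the other group in either line. Every siFOXA1 library was below every NSI library for 22.7% of the genes tested in PC3 and for 28.0% in VCaP. Library totals ran from 48187047 to 59839211 counts in VCaP and from 123140099 to 188226483 in PC3. In VCaP, 45.8% of the 22939 genes tested were called at an adjusted p under 0.05 (edgeR quasi-likelihood test with Benjamini-Hochberg adjustment), 23.3% lower and 22.5% higher, and 27.9% had every siFOXA1 library above every NSI library. The median log2 fold change of all genes tested in VCaP was 0.02.

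TRGC1 encodes the first constant region of the gamma chain and, in prostate cells, the body of TARP. The VCaP NSI libraries held 8339, 6298 and 8099 TRGC1 counts, against 488, 372 and 527 in siFOXA1. Scaled to library size it stood at 160.4, 125 and 141 CPM in NSI and at 9.68, 7.39 and 10.0 CPM in siFOXA1. The lowest NSI library was far above the highest siFOXA1 library. The means were 142 ± 17.6 and 9.03 ± 1.43 CPM (SD, n = 3), so that siFOXA1 held 6.35% of NSI (log2 fold change -3.98). Of all genes tested, 70, or 0.305%, had a log2 fold change of -3 or lower. TRGC1, TRGC2 and TRGJP are among these 70. So are TRGJ1, TRGJ2 and TRGJP2, which passed the filter on low counts only through NSI. TRGC1 and TRGC2 were proposed because of this fall, so nothing is read from these places among the 70. These libraries are bulk RNA, in which fewer expressing cells and less RNA per cell cannot be told apart.

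TRGC2 encodes the second constant region, which gives the receptor a longer connecting piece. It stood at 22.2, 21.0 and 21.6 CPM in VCaP NSI and at 1.63, 1.19 and 1.48 CPM in siFOXA1, again with no overlap. The mean went from 21.6 ± 0.620 to 1.43 ± 0.221 CPM (SD, n = 3), 6.63% of NSI (log2 fold change -3.91). Within each library TRGC2 had between 0.139 and 0.168 counts per TRGC1 count in NSI and between 0.147 and 0.167 in siFOXA1. The ranges of this ratio overlap between the groups. Given the near-identical exons, how much of the TRGC2 count came from TRGC1 RNA was not tested.

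**Figure D1:**
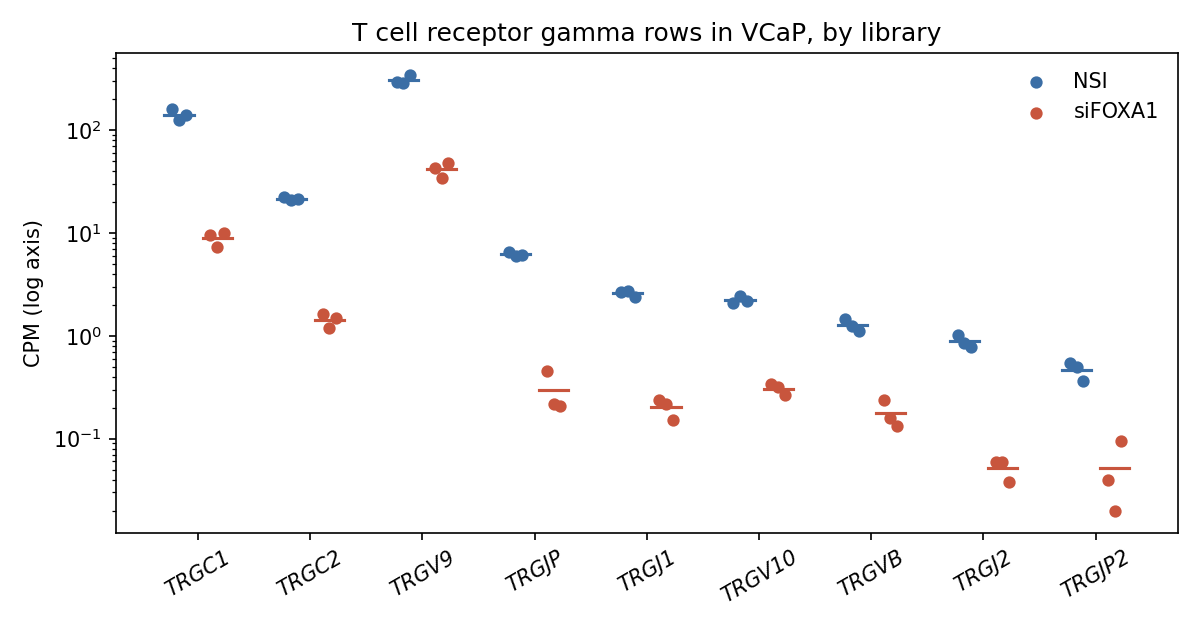
CPM on a log axis of the 9 rows of the locus that passed the count filter in VCaP, with a point for each library and a line at the mean of 3 NSI (blue) or 3 siFOXA1 (red) libraries. In each row shown all siFOXA1 points lie below all NSI points, with TRGC1 at 7.39 to 10.0 CPM against 125 to 160.4. TRGJ1, TRGJ2, TRGJP2 and TRGVB passed the filter only through NSI.

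The joining segments are short exons that link a variable to a constant region. TRGJP, where TARP begins, was counted 339, 299.7 and 350.2 times in VCaP NSI, compared with 22.9, 11.2 and 10.8 in siFOXA1. Its mean was 6.19 ± 0.292 CPM in NSI and 0.295 ± 0.140 in siFOXA1 (SD, n = 3), which left 4.76%. TRGJ1, between TRGJP and TRGC1, kept 7.75%, and TRGJ2, which lies before TRGC2, kept 5.91%. TRGJP2, beside TRGJ2, was counted 27.8, 25.1 and 20.6 times in NSI but only 2, 1 and 5 times in siFOXA1, which left 11.0%. Its log2 fold change of -3.10 became -3.86 without the third siFOXA1 library. The joining segment next upstream of the TARP start, TRGJP1, was counted 2.88, 2 and 1 times in NSI, compared with 4, 6 and 4.10 in siFOXA1. Its siFOXA1 values were all above those of NSI, but both groups had few counts.

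The variable segments lie farther upstream. TRGV9, the variable segment used by most circulating gamma delta T cells, was the most counted row of the locus. It had 295, 289.6 and 346 CPM in VCaP NSI and 42.8, 34.2 and 47.9 in siFOXA1. Its mean went from 310.0 ± 31.3 to 41.6 ± 6.95 CPM (SD, n = 3), 13.4% of NSI. TRGV10 and the pseudogene TRGVB, which lie between TRGV9 and TRGJP, kept 13.6% and 13.8%. TRGV11 had 20 counts over the 3 NSI libraries and 6 over the siFOXA1 libraries. Upstream of TRGV9, TRGV3 had 26.7 and 14.8 counts summed over the groups, TRGV7 23.3 and 7.5, TRGV5P 19 and 8.5, TRGV4 19.0 and 9.92, TRGV5 9.2 and 6.08 and TRGV8 12.0 and 3.5. TRGVA, TRGV6, TRGV2 and TRGV1 had under 10 counts in all over VCaP. The rows with many counts were thus those from TRGV9 down, apart from TRGJP1 and TRGV11.

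Of the 21 rows, 9 passed the filter on low counts in VCaP. TRGC1, TRGC2, TRGJP, TRGV9 and TRGV10 were above its limit in all 3 siFOXA1 libraries. TRGJ1, TRGJ2, TRGJP2 and TRGVB passed only through the NSI group. Their level in NSI was what let them pass, so nothing is read from their lower level in siFOXA1.

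**Figure D2:**
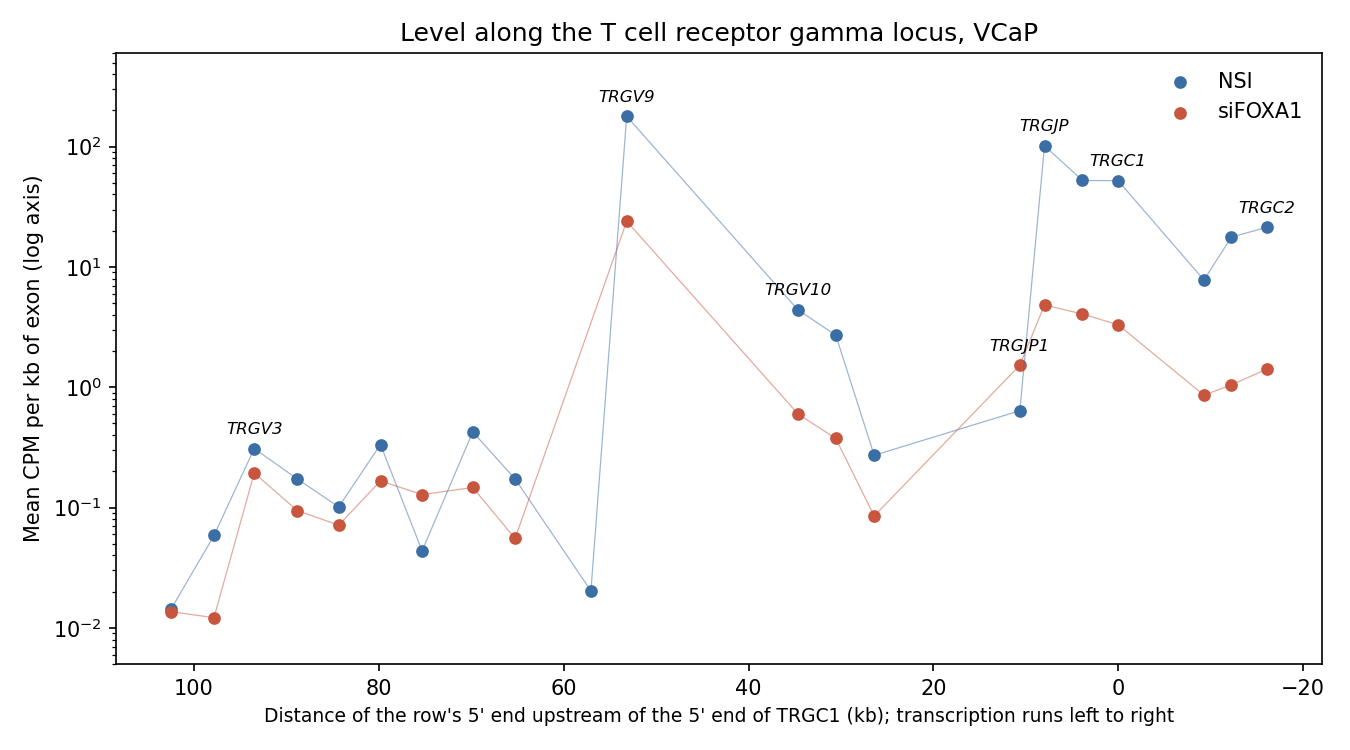
Mean CPM per kb of exon on a log axis against the distance of each row's 5′ end from that of TRGC1, in VCaP NSI (blue) and siFOXA1 (red), 3 libraries each, with thin lines joining neighbouring rows. TRGVA is listed at 0 in siFOXA1 and has no red point, and TRGJP and TRGJP1, which neighbour each other, differ from 101 to 0.638 CPM per kb in NSI.

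Levels of different rows were compared per kb of exon. In VCaP NSI TRGV9 led with 179 ± 18.0 CPM per kb, followed by TRGJP with 101 ± 4.79, TRGJ1 with 52.4 ± 3.59 and TRGC1 with 52.1 ± 6.44 (SD, n = 3). TRGJ1 and TRGC1 differed by less than their spread. TRGC2 followed with 21.3 ± 0.612, TRGJ2 with 17.7 ± 2.44, TRGJP2 with 7.78 ± 1.52, TRGV10 with 4.40 ± 0.352 and TRGVB with 2.71 ± 0.375. Joining segments of 50 to 61 bases are shorter than a sequenced fragment, so their level per kb is not on one footing with the longer rows. TRGC1 was divided by 2730 bases, which include a last exon of 2352, while the annotated last exon of TARP has 588. Where the RNA ended was not measured, so the TRGC1 level per kb depends on the length taken. Per kb, TRGC1 ranked 904 of 22939 genes in NSI, the 96.1 percentile, and was at the 52.9 percentile in siFOXA1. TRGC2 went from the 89.6 to the 36.0 percentile, whereas TRGV9 went from the 98.9 to the 91.3.

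The balance between the variable and constant parts also differed between the groups. TRGV9 had 1.84, 2.31 and 2.46 counts per TRGC1 count in the NSI libraries and 4.42, 4.63 and 4.78 in siFOXA1, with no overlap. TRGC1 held 26.9% to 32.6% of all counts of the locus in NSI and 16.5% to 17.3% in siFOXA1. TRGV9 held 59.8% to 66.3% and 76.4% to 78.8%. The constant genes thus kept a smaller share of their NSI level than TRGV9 did.

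**Figure D3:**
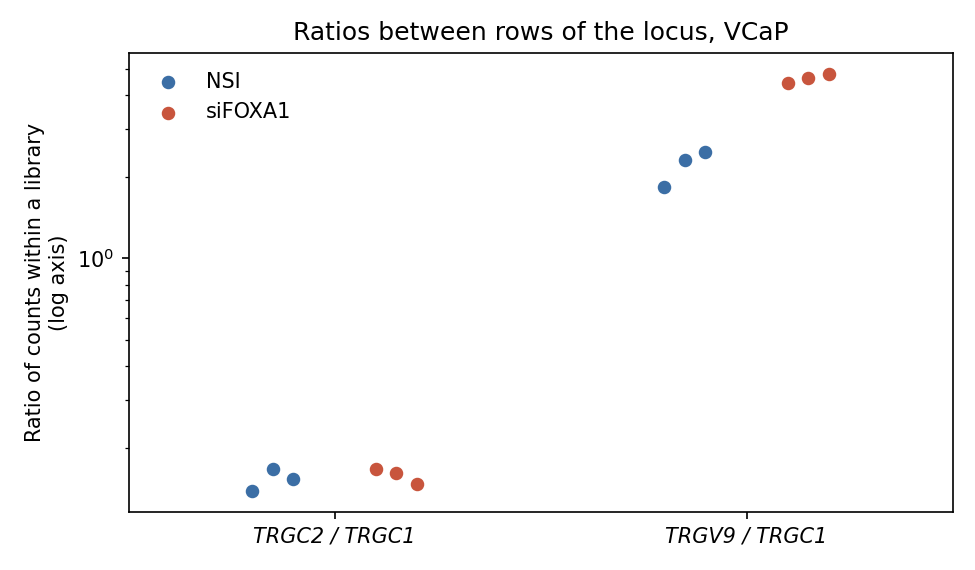
Ratio of TRGC2 to TRGC1 counts and of TRGV9 to TRGC1 counts within each VCaP library, on a log axis, with 3 NSI points in blue and 3 siFOXA1 points in red. The TRGC2 ratios overlap between groups (0.139 to 0.168 and 0.147 to 0.167), while the TRGV9 ratios do not (1.84 to 2.46 and 4.42 to 4.78).

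In PC3 the locus had almost no counts. TRGC1 had 2 counts in a single NSI library and 0 in the other 5, and TRGC2 had 0 in all 6. Over 484226618 counts the NSI value of TRGC1 was 0.00413 CPM, with an exact Poisson 95% interval of 0.000500 to 0.0149. A count of 0 over the 452201754 counts of the siFOXA1 group allows up to 0.00663 CPM by the limit of 3 counts, and up to 0.00816 CPM by the upper bound of the exact Poisson 95% interval. These limits cover counting error only. The 21 rows together had 10 counts in NSI and 2 in siFOXA1, and 16 rows were at 0 in all 6 libraries. No row passed the filter, so no change with FOXA1 siRNA could be measured in PC3.

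Genes that T cells need were looked at beside the locus. Of 8 genes for other T cell receptor chains and CD3, the receptor's signalling partner, 7 were in the tables. None of them passed the filter in VCaP. Their summed level was 0.0385 to 0.179 CPM in the NSI libraries and 0.0380 to 0.198 in siFOXA1, and CD3D, a defining T cell gene, was at 0 in all 6. Of 11 T cell identity markers 3 passed the filter. CD8B, a co-receptor subunit, had 0.654, 0.776 and 0.747 CPM in NSI and 0.337, 0.159 and 0.133 in siFOXA1. Its level in NSI alone let it pass, so no call is read from it, and it was named after its values were seen. The summed level of the 11 markers was 2.29 to 2.60 CPM in NSI and 1.98 to 2.30 in siFOXA1, with CD2 at 0. None of the 3 genes of V(D)J recombination was tested, and their sum stayed at or below 0.319 CPM in every VCaP library. Of 12 markers of B, NK and myeloid cells 3 were tested, of which 1 was called higher, 1 lower and 1 not called. Of all genes tested 22.5% rose and 23.3% fell. CD14, a monocyte receptor, went from 0.704 CPM in NSI to 2.73 in siFOXA1 (log2 fold change 1.96). NCAM1, an adhesion molecule, went from 2.88 to 0.722 CPM (-1.99).

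Genes that signal below the T cell receptor are mostly used by other cells as well. Of 15 genes 8 were tested in VCaP, 3 rose and 3 fell, where 22.5% of all genes tested rose and 23.3% fell. The median log2 fold change was 0.13 against 0.02 for all genes tested. FYN, a Src family kinase, rose from 4.73 ± 0.619 to 21.1 ± 1.76 CPM (SD, n = 3), which is 2.15 on the log2 scale (SE 0.11, adjusted p = 8.6e-07, edgeR). NFATC1, a calcium-regulated transcription factor, rose by 0.80 and BCL10, an adaptor to NF-kB, by 0.32 on the same scale. LCK, the kinase that starts receptor signalling in T cells, fell by 1.11 on the log2 scale and was under 1 CPM on average. PLCG1, a phospholipase, fell by 0.31 and GRB2, an adaptor, by 0.23. The GRB2 call was lost without the second siFOXA1 library (adjusted p = 0.0592, edgeR) and in the fit of all 12 libraries (adjusted p = 0.0566, edgeR). BCL10 and LCK were named after their values were seen.

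The factors that govern luminal prostate cells were mostly lower in VCaP after FOXA1 siRNA. Of 9 transcription factors 6 fell, 1 rose and 2 were not called, with a median log2 fold change of -0.44, beside the 23.3% of all genes tested that fell. FOXA1 is among the 6. SPDEF, an ETS factor of luminal cells, went from 178 ± 17.6 to 21.2 ± 2.93 CPM (log2 fold change -3.07, SE 0.12, n = 3, adjusted p = 2.22e-07, edgeR). NR3C1, the glucocorticoid receptor, rose by 0.30 (SE 0.08, adjusted p = 0.0112, edgeR). That call was lost without the first NSI library (adjusted p = 0.0523, edgeR), without the first siFOXA1 library (0.0547) and in the fit of all 12 libraries (0.0549).

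Androgen-induced genes were 12 lower, 3 higher and 5 not called of 20, with a median log2 fold change of -0.51. Of all genes tested in VCaP 23.3% were lower and 22.5% higher. FKBP5, a chaperone of steroid receptors, rose by 1.49, MAF by 0.83 and NDRG1 by 0.53, whereas SLC45A3, a prostate membrane protein, fell by 2.86 (SE 0.12, adjusted p = 3.49e-07, edgeR). NDRG1 was named after its values were seen. KLK2, a kallikrein protease, went from 1624 ± 189 to 782 ± 128 CPM (SD, n = 3), 48.1% of NSI. KLK3, which encodes PSA, had 102, 51.4 and 54.6 CPM in NSI and 78.2, 65.2 and 46.3 in siFOXA1, which overlapped (log2 fold change -0.13, adjusted p = 0.711, edgeR). Of 18 secretory and surface genes of the prostate 15 were tested in VCaP, 10 fell and 1 rose, with a median of -1.04. The same shares of all genes tested, 23.3% lower and 22.5% higher, stand beside this count. Some genes are in 2 of the 3 prostate lists, KLK2, KLK3 and SLC45A3 among them, so the counts are not independent. TGM4, a prostate transglutaminase, fell by 3.81 (SE 0.26, adjusted p = 4.06e-06, edgeR), while AMACR, a racemase of fatty acid oxidation, rose by 1.65. TGM4 kept 7.12% of its NSI level and TRGC1 6.35%.

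**Figure D4:**
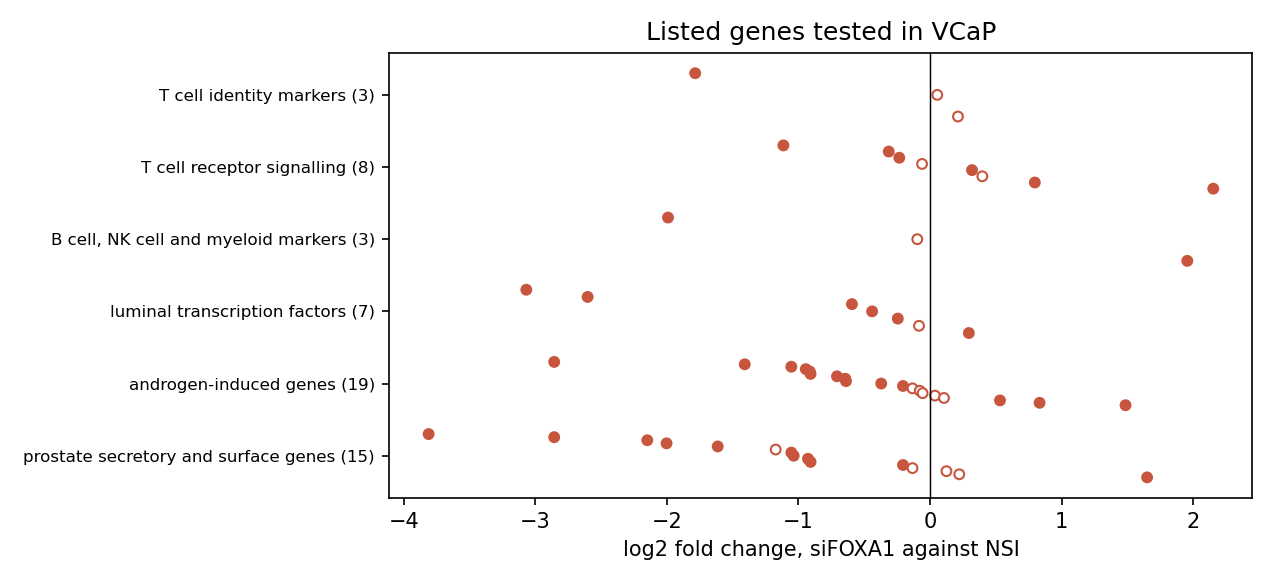
The log2 fold change of siFOXA1 against NSI in VCaP for tested genes of 6 gene lists, with the number plotted in parentheses, which leaves out genes not reported here; filled points had an adjusted p under 0.05 and open points did not. Most of the genes of the 3 prostate lists lie below 0, down to TGM4 at -3.81, and T cell receptor signalling genes lie on both sides.

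In PC3 the same lists were measured at other levels. There 27.7% of the 26478 genes tested were called, 13.9% lower and 13.9% higher, and this share depends on the fit, with 7344 calls, 11333 with the replicate number as a block, 4738 without the third NSI library and 3963 without the first siFOXA1 library. KLK2 stood at 0.0157 CPM in PC3 NSI. Of the luminal factors 8 were tested, 4 fell and 1 rose. FOXA1, the siRNA target, is among the 4. With 1 library left out between 2 and 4 luminal factors fell and 1 or 2 rose. Of the secretory and surface genes 10 were tested, and 5 rose. With the replicate number as a block 7 rose and 1 fell, and with 1 library left out between 2 and 7 rose.

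Of 24 neighbouring genes within 1 Mb 7 were tested in VCaP, 2 rose, 2 fell and 3 were not called. These shares are near those of all genes tested, of which 22.5% rose and 23.3% fell, and between 0 and 4 neighbours rose with 1 library left out. STARD3NL, a membrane protein of late endosomes, is the nearest gene on the TRGC2 side (38217824 to 38270272), and it went from 82.9 ± 4.68 to 47.8 ± 3.58 CPM (log2 fold change -0.79, SE 0.07, n = 3, adjusted p = 2.37e-05, edgeR). EPDR1 (37723446 to 37991543), an ependymin-related protein, went from 60.8 ± 5.25 to 30.9 ± 2.40 CPM (-0.98, SE 0.08, n = 3, adjusted p = 1.38e-05, edgeR). Each kept over 50% of its NSI level. On the variable side, VPS41 (38762563 to 38948829), a subunit of the HOPS tethering complex, rose by 0.27 (SE 0.07, adjusted p = 0.0138, edgeR), a call lost without the first NSI library (0.23, adjusted p = 0.0653). TRG-AS1, an antisense RNA on the plus strand (38381216 to 38418405) opposite the upstream variable segments, had 1.25, 0.936 and 1.42 CPM in NSI and 1.84, 1.61 and 1.75 in siFOXA1. It rose by 0.52 (SE 0.18, adjusted p = 0.0358, edgeR), but the adjusted p lay between 0.0180 and 0.206 over 14 alternatives and 7 of them lost the call, including those without the first or second NSI library or any 1 siFOXA1 library. VCaP counts used strand, so its reads were kept apart from those of the minus-strand segments.

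The pseudogene AC006033.22, which lies between TRGV10 and TRGV9 on the opposite strand, had 0.981, 1.02 and 1.20 CPM in NSI and 0.654, 0.834 and 1.14 in siFOXA1 (log2 fold change -0.28, adjusted p = 0.326, edgeR). The 7SL pseudogene RN7SL83P (0.64) was not called either, but was called without the third NSI library, at 1.46. AMPH, which encodes amphiphysin, had 0.135, 0.139 and 0.330 CPM in NSI and 0.436, 0.318 and 0.285 in siFOXA1. It passed the filter only through the siFOXA1 group, so nothing is read from its test.

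**Figure D5:**
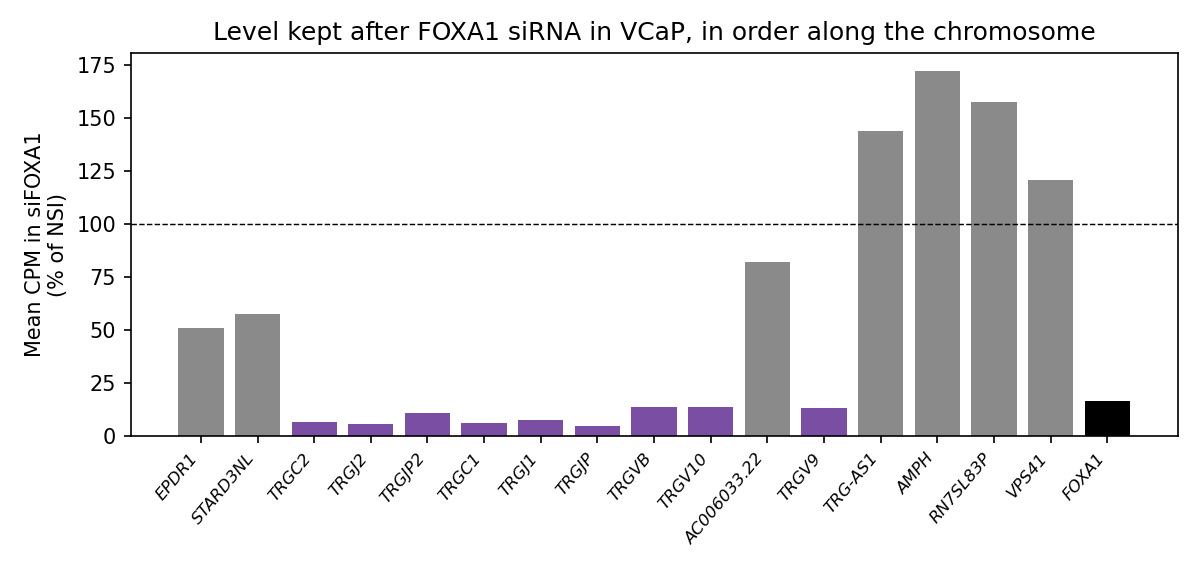
Mean CPM in siFOXA1 as a percentage of the NSI mean in VCaP (3 libraries each) for the rows of the locus that passed the filter (purple), their tested neighbours within 1 Mb in order along the chromosome (grey) and FOXA1 (black); the dashed line marks 100%. The purple bars run from 4.76% to 13.8%, and the grey bars stand at 50.8% or above. TRGJ1, TRGJ2, TRGJP2 and TRGVB passed the filter only through NSI, and AMPH only through siFOXA1. Rows that failed the filter had few counts and are not drawn. Among them TRGV11 kept 31.3%, TRGV3 62.6% and TRGJP1 239%, and the neighbours RP11-121A8.1 and SFRP4 kept 27.6% and 37.8%.

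The genes with the pattern most like TRGC1 over the 12 libraries were found by the root-mean-square difference between log2 CPM values centred on each gene's mean, among 11599 genes with at least 5 CPM in VCaP NSI. NPY, which encodes neuropeptide Y (chromosome 7, 24323782 to 24331484), was the closest, with a difference of 0.586 (Pearson's r 0.996). It had 262 ± 41.6 CPM in VCaP NSI and 16.0 ± 4.94 in siFOXA1 (SD, n = 3), or 6.09% of NSI, and 0.0265 CPM in PC3 NSI. The next was SI, sucrase-isomaltase, at 0.660 (r 0.993), which kept 18.9%. SPON2, which encodes the secreted protein spondin 2, followed at 0.805 (r 0.997) and kept 10.7%. The histone gene HIST1H3I was next at 0.936 (r 0.987) and kept 33.7%, and TRGV9 was the fifth at 0.959 (r 0.994). All 5 were under 1 CPM in PC3, so the gap between the lines is part of the likeness, and the libraries of a line share kit and depth. SPON2 was the highest of them there, at 0.711 CPM in NSI. HIST1H3I was at 0 in PC3 NSI, where the libraries were made from polyA RNA, and whether the kit set this level was not tested.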

How the data were processed

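RNA from 12 libraries was sequenced. Per the submitters' processing notes, STAR 2.7.3a and featureCounts of Subread 2.0.0 were used with GRCh37. The authors deposited expected counts per gene; per the file headers, fragments mapping to several places or genes were divided among them, PC3 was counted without strand and VCaP with it. Of the nonzero values 54.8% to 75.2% were not whole, so counts were rounded to the nearest whole number, ties upward. Each line was fitted alone with edgeR 4.0.16 (R 4.3.3): TMM factors, filterByExpr, two-sided quasi-likelihood test, Benjamini-Hochberg adjustment over all genes tested. The script was tested on simulated data. Sequences came from a GRCh37 reference in which all 37 chromosome names of the tables were found. The named genes were TRGC1, TRGC2, rows of the locus with 10 counts in a line, FOXA1, KLK2, KLK3, tested neighbours within 1 Mb, the 5 most like TRGC1, and in each list the 2 called genes with the largest rise and fall at 1 CPM or more. Some items that this rule named are not reported here. The members and lists were chosen with earlier results of these data known. In PC3 the departures of libraries with one number from the mean of their group correlated at 0.50, 0.63 and 0.23. Libraries numbered 1 and 2 correlated best with their own number there, and those numbered 3 did not. What a shared number marks is not given in the labels, and the main fits took no account of it. Alternatives were other scalings, DESeq2 1.42.0, no filter, all 12 libraries, the replicate block and leaving out each library; rounding ties to even was chosen after seeing the data.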

Additional observations from a re-analysis of the deposited data

Results flagged for a closer look

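The change after FOXA1 siRNA differed between the lines for the genes listed below, all named outside the locus. The test was the interaction term of 1 edgeR fit over all 12 libraries and 30450 genes. The share of all genes with such a difference was not computed, so the number of genes listed is not read as a result. The values are the VCaP log2 change minus the PC3 change. The rows of the locus had too few counts in PC3 for such a test.

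Negative values mean that the VCaP change was below the PC3 change. The difference was negative for TGM4 (-3.38), SLC45A3 (-2.78), NCAM1 (-2.56), FOXA1 itself (-1.94), SPDEF (-1.69), the neighbour EPDR1 (-1.59), the neighbour STARD3NL (-0.79) and PLCG1 (-0.47). It was positive for FYN (2.27), FKBP5 (2.02), CD14 (1.20), AMACR (1.18), NFATC1 (1.00) and BCL10 (0.77). Such a difference can be one of size, as FOXA1 and SPDEF fell in both lines. NCAM1 failed the filter in PC3, at a mean of 0.0379 CPM in NSI and 0.0593 in siFOXA1, so its PC3 change rests on few counts. The line cannot be told apart from siRNA dose, medium and library kit, and FOXA1 was reduced less in PC3.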

How the results depend on the processing

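TRGC1 in VCaP ranged from -4.07 to -3.85 and TRGC2 from -4.02 to -3.79 (log2) over the fits that left out 1 library, and the sum of all rows of the locus gave -3.19, as TRGV9 carries most of its counts. TRGJP was at -4.85 without the first siFOXA1 library and TRGJP2 at -3.86 without the third. Calls in PC3 numbered 7344, from 3963 to 7628 with 1 library left out and 11333 with the replicate block. Listed genes and neighbours called in PC3 numbered 24, and from 14 to 29 with 1 library left out and 35 with the replicate block. In VCaP same-numbered libraries correlated at 0.11, 0.04 and 0.40, and the third pair alone correlated best with its own number. Pairing by number was thus seen for only part of the numbers in either line. With the block, RN7SL83P was called in VCaP (0.74, adjusted p = 0.0336, edgeR) and TGM4 in PC3 (-0.45, adjusted p = 0.0368, edgeR). Directions reversed for genes that were not called: KLK3 in VCaP (-0.32 to 0.24 with 1 library left out, 0.24 without the first NSI, 0.0483 without the third siFOXA1 library), GRB2 in PC3 (0.0157 by library size alone) and STARD3NL in PC3 (0.0241 with all 12 libraries, 0.0142 with ties to even, 0.0717 by library size alone, 0.0425 with upper-quartile factors, -0.0600 to 0.0546 with 1 library left out, 0.0546 without the second NSI, 0.0116 without the first and 0.0270 without the third siFOXA1 library). NR3C1 lost its VCaP call in 3 alternatives and GRB2 in 2. Of 974 alternatives over 65 single values, 926 kept direction and call. The causes were not tested. In PC3 the limit of 3 counts over a group lay at 0.00620 CPM in NSI and 0.00663 in siFOXA1.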
